A study of Canis lupus familiaris with 16 samples.

Results

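The G1 cell cycle genes described here are the D-type cyclins CCND1, CCND2 and CCND3, the kinases CDK4 and CDK6, the CDK inhibitors CDKN1B, CDKN2A and CDKN2B, the pocket protein gene RB1, and MYC. They were chosen by name: a gene belongs if its symbol in the count tables equals a listed symbol. Of the 10 listed symbols 9 were found, out of 39543 symbols in all. CDKN2A is not analysed here, and CDKN2B had 2 entries, which were summed. The libraries come from 4 canine hepatocellular carcinoma cell lines, each established from a liver tumour of a dog, and they carry the names KU-cHCC-001 and KU-cHCC-002, then KU-cHCC-004 and KU-cHCC-005. Every line was treated for 24 h with sorafenib at 30 µM, with toceranib at 15 µM, with DMSO, the vehicle of sorafenib, or with DPBS, the vehicle of toceranib. Sorafenib is an inhibitor of several protein kinases, and toceranib is a veterinary inhibitor of receptor tyrosine kinases. There was 1 library per line and treatment, 16 in all. The cells grew in Advanced DMEM with fetal bovine serum, and the counts are bulk RNA-seq counts. A change in the share of a cell type and a change in RNA per cell cannot be told apart in such libraries.

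Growth factors raise the D cyclins, which bind and activate CDK4 and CDK6. The active kinases phosphorylate the RB1 protein, which then releases E2F transcription factors, and these switch on the genes of S phase. CDKN2A and CDKN2B encode inhibitors of CDK4 and CDK6, CDKN1B encodes p27, an inhibitor of cyclin-CDK2 complexes, and MYC is a transcription factor that drives growth and entry into the cycle. In liver cancer, amplification or overexpression of CCND1 and MYC and loss of RB1 or of the CDKN2A and CDKN2B locus are known events.

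The libraries held 12008366 to 21943572 counts each, the smallest being toceranib-treated KU-cHCC-005. Of 8 hepatocyte markers in the tables, 2 reached 5 CPM (read counts scaled to a common library size, with TMM factors) in any sorafenib library, 3 in any toceranib library and 3 in any DMSO library, and 1 in any DPBS library. ALB, the secreted product that defines hepatocytes, reached at most 0.424 CPM, while the hepatocyte transcription factor HNF4A ran from 2.69 to 96.6 CPM with sorafenib, toceranib or DMSO and from 74.3 to 119 CPM with DPBS. The biliary keratin KRT7 ran from 3774 to 7688 CPM in 3 lines with sorafenib, toceranib or DMSO, but only from 242 to 298 CPM in KU-cHCC-001. The DPBS libraries went against their line labels. L1CAM, at 459, 1022 and 1131 CPM in KU-cHCC-001 with sorafenib, toceranib and DMSO, was at 1.503 CPM in the library that bears this name with DPBS. With DPBS, KU-cHCC-005 differed from KU-cHCC-002 by 2.25 times the sampling noise and KU-cHCC-004 from KU-cHCC-001 by 2.39 times. Any other pair within an arm differed by at least 12.05 times. That smallest value was for KU-cHCC-004 and KU-cHCC-005 with toceranib, which differed by 34.4 times with DMSO and 36.8 times with sorafenib. Drug effects were therefore set against DMSO of the same line, and toceranib was set against DPBS without pairing.

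After 24 h of sorafenib, RB1 RNA was higher in each of the 4 lines and was the 1 member of 9 that passed the test against DMSO. Over all 14938 genes tested, 19.6% passed in that comparison. CCND1, CCND3, CDK4 and CDKN1B, 4 of the 9, were lower in 4 of 4 lines without passing, and 24.5% of all genes were lower in 4 of 4 lines. With toceranib no member of 9 passed against DMSO, where 7.46% of all genes passed, and no member passed against DPBS, where 1 gene of 14588 passed (0.00685%). For KU-cHCC-001 against the other lines 5 of 9 members passed, where 43.8% of all genes did. The larger count of members thus goes with a larger share over all genes. A pass is an adjusted p under 0.05 in edgeR's quasi-likelihood test. With 1 library per line and arm, the p-values measure the spread between these libraries.

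**Figure D1:**
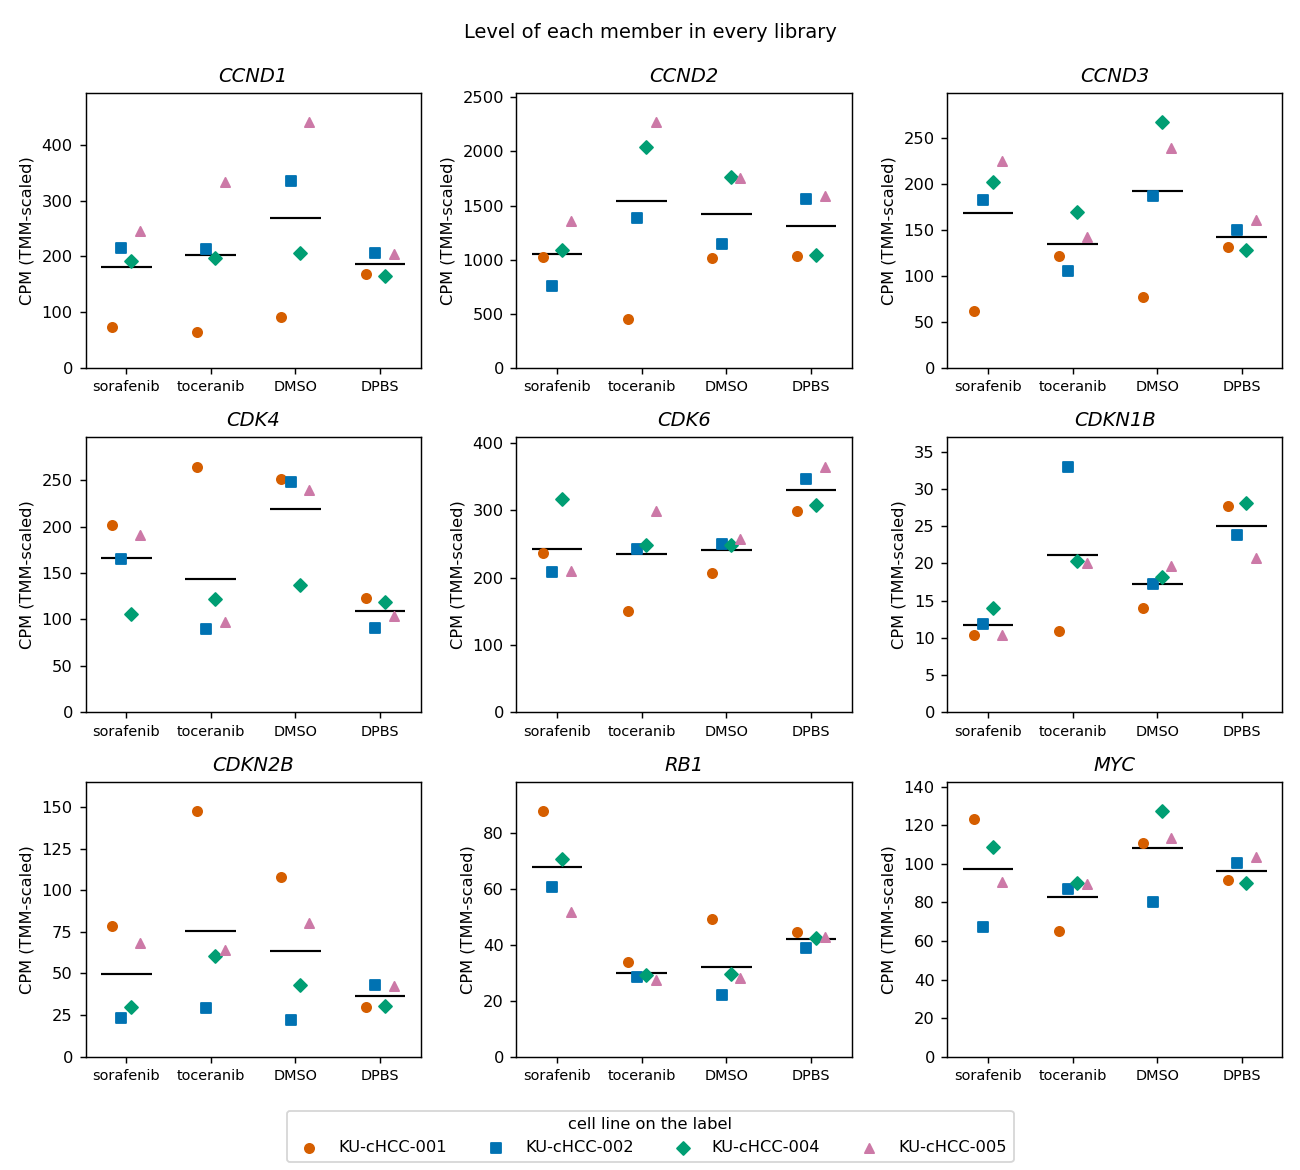
Level of each of the 9 members in every library, in TMM-scaled CPM on a linear axis from 0, by treatment. Symbols mark the line on the label and horizontal bars the mean of the 4 libraries; RB1 with sorafenib sits between 51.9 and 87.8 CPM, above all 4 DMSO libraries, and CCND1 in KU-cHCC-001 lies below the other lines with sorafenib, toceranib and DMSO.

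In the values that follow, the 4 numbers of an arm, or of a drug's effect by line, stand in the order of the line numbers, KU-cHCC-001 first and KU-cHCC-005 last. CCND1, the D cyclin best known as a target of growth factor signalling, stood at 72.2, 215, 192 and 246 CPM with sorafenib, against 91.4, 335, 206 and 441 CPM with DMSO. Its levels were 63.5, 213, 197 and 334 CPM with toceranib, against 168, 206, 165.5 and 204 CPM with DPBS. In each line both drug-treated libraries were below DMSO, yet the ranges of the arms overlapped. KU-cHCC-001 was low with sorafenib, toceranib and DMSO, and KU-cHCC-004 with DMSO lay within the ranges of the drug-treated libraries. The fitted log2 change with sorafenib was -0.50 ± 0.16 (SE; 95% interval -0.85 to -0.14, edgeR adjusted p = 0.0514), and the difference by line was largest in KU-cHCC-005, at -0.84, and smallest in KU-cHCC-004, at -0.10. CCND1 missed the threshold here but passed when only the 8 sorafenib and DMSO libraries were fitted (-0.51, edgeR adjusted p = 0.0204) and with DESeq2 (adjusted p = 0.0290). Both alternatives called more genes in all, 5053 and 3737, against 2935 in the 12-library edgeR fit. With toceranib the log2 change against DMSO was -0.41 ± 0.16 (interval -0.77 to -0.06, edgeR adjusted p = 0.128, lower in 4 of 4 lines, as were 14.7% of all genes), and against DPBS it was 0.14 ± 0.41 (edgeR adjusted p = 0.912). The 2 comparisons against DMSO share their control libraries. Between sorafenib and toceranib CCND1 differed by -0.09 (interval -0.44 to 0.27, edgeR adjusted p = 0.700).

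CCND2, a D cyclin with the same kinase partners, had 1023, 754, 1091 and 1355 CPM with sorafenib, against 1014, 1145, 1761 and 1755 CPM with DMSO. It was lower with sorafenib in 3 of 4 lines and nearly level in KU-cHCC-001, and the ranges overlapped (log2 change -0.39, interval -1.06 to 0.27, edgeR adjusted p = 0.388). The fit of the 8 sorafenib and DMSO libraries alone called it lower (-0.44, edgeR adjusted p = 0.0342), among 5053 genes called in either direction. With toceranib CCND2 read 454, 1380, 2046 and 2271 CPM, against 1037, 1562, 1040 and 1592 CPM with DPBS. The toceranib-treated KU-cHCC-001 library was the lowest of all 16 for this gene, while the toceranib libraries of KU-cHCC-004 and KU-cHCC-005 were the highest. Set against DMSO of the same line, the log2 differences were -1.16, 0.27, 0.22 and 0.37 in the 4 lines, which left an average of 0.01 (edgeR adjusted p = 0.982).

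CCND3, the third D cyclin, showed the opposite split between lines. With toceranib it was at 121, 106, 170 and 143 CPM, against 131, 150, 128 and 161 CPM with DPBS. DMSO libraries held 76.6, 187, 268 and 239 CPM. Relative to DMSO of the same line, CCND3 with toceranib was 0.66 higher on the log2 scale in KU-cHCC-001 and differed by -0.82, -0.66 and -0.74 in the other 3 lines. The averaged change was -0.35 ± 0.27 (edgeR adjusted p = 0.422). Without the libraries of KU-cHCC-001 it was -0.71 and passed (edgeR adjusted p = 0.0151). Leaving this line out raised the genes called in all to 3044, from 1115 with it. A direct test of the toceranib effect in KU-cHCC-001 minus that in the other 3 lines gave -1.48 ± 0.37 for CCND2 (edgeR adjusted p = 0.0958) and 1.37 ± 0.32 for CCND3 (edgeR adjusted p = 0.0751). Neither passed in edgeR, where 0.743% of all genes did, and both passed with DESeq2 (adjusted p = 3.92e-04 for CCND2 and 0.00833 for CCND3). That test rests on 1 toceranib and 1 DMSO library of KU-cHCC-001, which are assumed to vary like the others. The toceranib library of KU-cHCC-001 had CD74 at 321 CPM and PECAM1 at 13.3 CPM, against 2.73 and 0.21 CPM in the DMSO library of the line. In that toceranib library the leukocyte genes PTPRC, CD3E and TYROBP were at 0. The summed level of the 7 leukocyte markers was 62.0 to 333 CPM with toceranib, with 2 of 7 reaching 5 CPM in any library, against 14.4 to 85.3 CPM with DMSO, with 1 of 7, and its part in the toceranib values was not tested. With sorafenib CCND3 stood at 61.3, 183, 203 and 226 CPM. It was below DMSO in 4 of 4 lines, by -0.32, -0.031, -0.40 and -0.0825 on the log2 scale, and did not pass (-0.21, interval -0.78 to 0.36, edgeR adjusted p = 0.605).

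CDK4, the kinase partner of the D cyclins, had 202, 165, 106 and 191 CPM with sorafenib, against 252, 248, 137 and 239 CPM with DMSO. Sorafenib libraries were lower in all 4 lines by similar amounts, -0.32, -0.58, -0.37 and -0.33 on the log2 scale, and the ranges of the arms overlapped. The change of -0.42 ± 0.25 did not pass (edgeR adjusted p = 0.260), but it did in the 8 libraries of both arms alone (-0.43 ± 0.10, edgeR adjusted p = 0.0137). That smaller fit called 5053 genes in all, against 2935. Toceranib libraries held 265, 89.5, 122 and 97.4 CPM of CDK4, against 123, 90.9, 119 and 104 CPM with DPBS. The 4 toceranib values fall apart by line. Against DMSO CDK4 was far lower in KU-cHCC-002 (-1.46) and in KU-cHCC-005 (-1.29), and close to level in KU-cHCC-001 (0.07) and KU-cHCC-004 (-0.16). The averaged change was -0.67 ± 0.26 (interval -1.23 to -0.11, edgeR adjusted p = 0.119), and it was -0.92 without KU-cHCC-001 (edgeR adjusted p = 0.0288). Without that line 3044 genes passed in all, against 1115 with it. Against DPBS the change was 0.42 ± 0.34 (edgeR adjusted p = 0.634), and the DPBS libraries were low as well. In the toceranib library of KU-cHCC-005 the fibroblast genes COL3A1 and DCN were at 51.7 and 17.2 CPM and in the DPBS library of that label at 80.4 and 18.4 CPM, while both were at 0 in the 4 sorafenib and the 4 DMSO libraries. The DPBS library labelled KU-cHCC-002 had COL3A1 at 72.55 CPM and DCN at 15.6 CPM. With toceranib, KU-cHCC-004 had COL3A1 at 6.54 CPM and DCN at 0. Of 11 mesenchymal markers, 10 reached 5 CPM in any toceranib library and 9 in any DPBS library, against 5 with DMSO. The part of these markers in the CDK4 values was not tested; without the toceranib library of KU-cHCC-005 the change of CDK4 against DMSO was -0.47 (edgeR adjusted p = 0.333).

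CDK6, the other D cyclin kinase, differed little on average from DMSO. It stood at 236, 208, 317 and 209.5 CPM with sorafenib, against 207, 249, 249 and 258 CPM with DMSO. Higher in 2 lines and lower in 2, it had an average log2 change of 0.00 (interval -0.43 to 0.42, edgeR adjusted p = 0.991). Toceranib gave 150.1, 242, 248 and 299 CPM, against 299.3, 346.5, 309 and 365 CPM with DPBS. The toceranib range ended just below the DPBS range. CDK6 and RB1 were the 2 of 9 members without overlap there, beside 9.77% of all genes. For CDK6 the change was -0.47 ± 0.21 (edgeR adjusted p = 0.414). Against DMSO it was -0.06 (edgeR adjusted p = 0.875).

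CDKN1B, which encodes the inhibitor p27, was the least counted member, with 201 to 554 counts per library. Sorafenib libraries had 10.4, 11.9, 14.0 and 10.4 CPM, against 14.0, 17.2, 18.2 and 19.6 CPM with DMSO. All 4 lines were lower with sorafenib and the arms did not overlap, the highest sorafenib value being 13.96 and the lowest DMSO value 13.99 CPM. CDKN1B and RB1 were the 2 of 9 members whose ranges did not overlap in this comparison, beside 12% of all genes. The log2 change was -0.58 ± 0.24 (interval -1.11 to -0.04, edgeR adjusted p = 0.118), and it passed when the fit held only the 8 libraries with sorafenib or DMSO (-0.59, edgeR adjusted p = 0.0256). That smaller fit called 5053 genes in all, against 2935. Toceranib libraries were at 10.98, 33.0, 20.4 and 20.1 CPM, against 27.7, 23.8, 28.2 and 20.7 CPM with DPBS. KU-cHCC-002 was high and KU-cHCC-001 low with toceranib, and neither comparison passed (0.22 against DMSO, edgeR adjusted p = 0.587; -0.23 against DPBS, edgeR adjusted p = 0.784).

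CDKN2B, which encodes the CDK4 and CDK6 inhibitor p15, stood at 78.2, 23.3, 29.7 and 68.2 CPM with sorafenib, against 108, 21.9, 43.3 and 80.2 CPM with DMSO. Libraries with toceranib held 147.5, 29.5, 60.5 and 64.3 CPM, against 30.1, 43.2, 30.7 and 42.7 CPM with DPBS. The arms overlapped widely, since KU-cHCC-001 and KU-cHCC-005 were high and KU-cHCC-002 was low with sorafenib, toceranib and DMSO. The DPBS library labelled KU-cHCC-001 did not have the high level seen with that label in the other arms. Changes were -0.30 for sorafenib against DMSO (interval -0.72 to 0.13, edgeR adjusted p = 0.302), 0.28 for toceranib against DMSO (edgeR adjusted p = 0.380) and 1.07 ± 0.43 for toceranib against DPBS (edgeR adjusted p = 0.381).

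RB1, whose protein holds E2F in check until CDK4 and CDK6 phosphorylate it, had 87.8, 60.6, 70.6 and 51.9 CPM with sorafenib, against 49.1, 22.2, 29.4 and 28.2 CPM with DMSO. The arms did not overlap, and RB1 rose to 67.7 ± 15.4 CPM with sorafenib, against 32.2 ± 11.7 CPM with DMSO (SD, n = 4 libraries each). The log2 change was 1.08 ± 0.18 (interval 0.70 to 1.47, edgeR adjusted p = 0.00323), at 0.83, 1.43, 1.25 and 0.87 in the 4 lines. When 1 line was left out at a time, the change ran from 0.96 to 1.19 and the edgeR adjusted p from 0.00138 to 0.0453. Without the cell line in the fit it was 1.05 and no longer passed (edgeR adjusted p = 0.0551). The increase in KU-cHCC-001 and in the other lines differed by -0.37 ± 0.35 (edgeR adjusted p = 0.909). No gene passed that test of the sorafenib effect in edgeR (0%), 1057 had an unadjusted p under 0.05, and DESeq2 called 103.

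Toceranib libraries held 33.7, 28.6, 29.3 and 27.4 CPM of RB1, against 44.6, 39.0, 42.3 and 42.9 CPM with DPBS. All 4 toceranib values lay below the DPBS values, at -0.48 ± 0.12 on the log2 scale, which did not pass after adjustment (edgeR unadjusted p = 0.00397, edgeR adjusted p = 0.234) but did with DESeq2 (adjusted p = 0.0132). In that comparison edgeR called 1 gene, 1799 had an unadjusted p under 0.05, and DESeq2 called 410. Against DMSO the toceranib change was -0.06 (interval -0.45 to 0.32, edgeR adjusted p = 0.846). Set directly against toceranib, sorafenib gave higher RB1 in 4 of 4 lines, as did 23.4% of all genes (1.14 ± 0.18, edgeR adjusted p = 8.58e-04), with vehicles that differ.

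MYC stood at 123, 67.1, 109 and 90.9 CPM with sorafenib, against 111, 80.3, 127 and 114 CPM with DMSO. It was at 65.0, 87.1, 90.3 and 89.7 CPM with toceranib, against 91.7, 100.5, 89.9 and 103 CPM with DPBS. The ranges of the arms overlapped, and the toceranib library of KU-cHCC-001 had the least MYC of all 16. No change passed: -0.17 for sorafenib against DMSO (interval -0.60 to 0.26, edgeR adjusted p = 0.580), -0.35 for toceranib against DMSO (interval -0.78 to 0.08, edgeR adjusted p = 0.268) and -0.19 for toceranib against DPBS (edgeR adjusted p = 0.599).

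**Figure D2:**
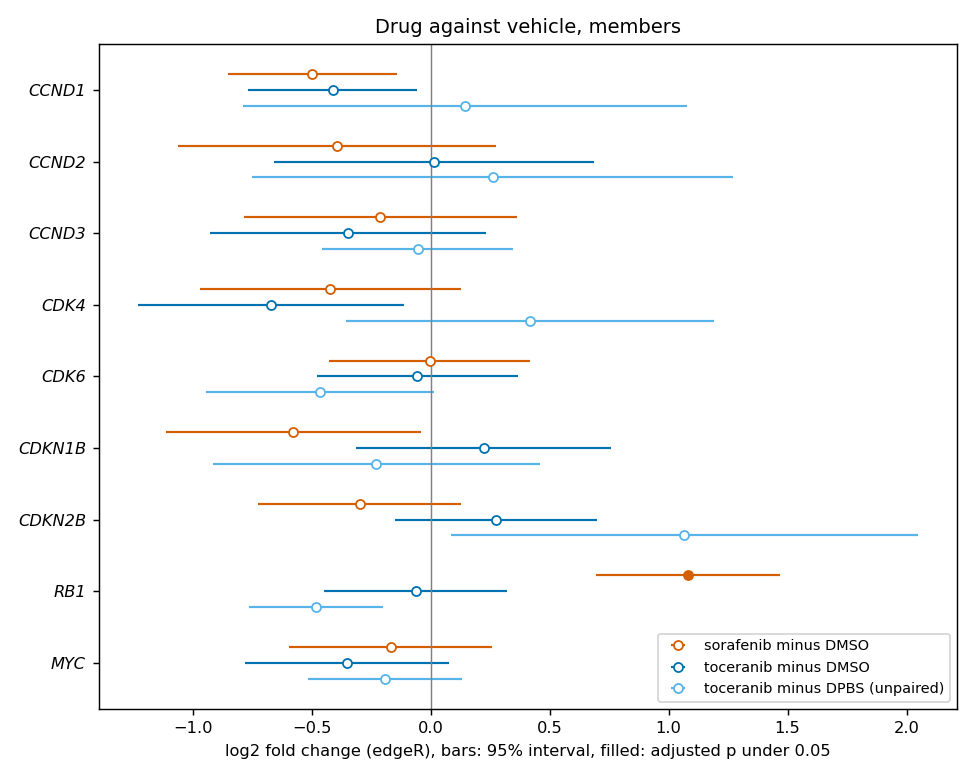
Log2 fold change of each member for sorafenib minus DMSO, toceranib minus DMSO and toceranib minus DPBS (edgeR; points are estimates, bars 95% intervals, a filled point an adjusted p under 0.05). RB1 with sorafenib, at 1.08, is the 1 filled point, and the intervals against DPBS are wide for CCND1, CCND2, CDK4 and CDKN2B.

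Sorafenib and toceranib were also compared with each other, where 38.4% of all genes passed. Beside RB1, the inhibitors CDKN1B (-0.80 ± 0.25, edgeR adjusted p = 0.0252, lower with sorafenib in 4 of 4 lines, as were 23.5% of all genes) and CDKN2B (-0.57 ± 0.20, edgeR adjusted p = 0.0378, lower in 3 of 4) passed. Both calls rest on few libraries. CDKN1B kept its call without KU-cHCC-001 and lost it without any other line (-0.53 and edgeR adjusted p = 0.138 without KU-cHCC-002, edgeR adjusted p = 0.0832 without KU-cHCC-004, edgeR adjusted p = 0.128 without KU-cHCC-005), and without the toceranib library of KU-cHCC-005 alone (edgeR adjusted p = 0.0591). CDKN2B kept its call without KU-cHCC-005 and lost it when any other line was left out (-0.42 and edgeR adjusted p = 0.228 for KU-cHCC-004, edgeR adjusted p = 0.101 for KU-cHCC-001, edgeR adjusted p = 0.0705 for KU-cHCC-002), and with its larger entry alone (edgeR adjusted p = 0.0508). Without KU-cHCC-001, CCND2 was lower (-0.87, edgeR adjusted p = 0.00497) and CCND3 higher (0.54, edgeR adjusted p = 0.0203) with sorafenib than with toceranib. Leaving this line out raised the genes called in all to 6750, from 5737 with it.

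The vehicles were set against each other as well. DPBS against DMSO, a comparison added after the data were seen and made without pairing, gave 1 call among the 9, CDK4 (-0.99 ± 0.22, edgeR adjusted p = 0.0489), where 3.42% of all genes passed. The 4 DPBS values of CDK4, 90.9 to 123 CPM, lay below the 4 DMSO values, 137 to 252 CPM. The call was lost without any 1 of the 4 DPBS libraries (edgeR adjusted p = 0.127, 0.160, 0.140 and 0.151 in the order of the line numbers). It was also lost without the DMSO library of KU-cHCC-002 (edgeR adjusted p = 0.0887) or of KU-cHCC-005 (edgeR adjusted p = 0.0953). With each close pair of DPBS libraries summed to 1 it was -0.98 (edgeR adjusted p = 0.520), and with the line label as a block -0.96 (edgeR adjusted p = 0.176). The test thus counts 4 DPBS libraries that form 2 close pairs. CDK6 (0.48, edgeR adjusted p = 0.0917) and CDKN1B (0.56, edgeR adjusted p = 0.116) had DPBS libraries above all DMSO libraries without passing, so 3 of 9 members did not overlap, beside 18.1% of all genes. Without the DMSO library of KU-cHCC-001, CCND3 (-0.68, edgeR adjusted p = 0.0270) and RB1 (0.68, edgeR adjusted p = 0.0210) passed as well. Leaving that library out raised the genes called in all to 2378, from 485 with it. These values bear on any reading of toceranib, since its own vehicle is DPBS, and drug, vehicle and line label cannot be told apart there.

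Line-specific levels were read from the sorafenib, toceranib and DMSO libraries, 3 per line. CCND1 was lowest in KU-cHCC-001, at 75.7 ± 14.3 CPM (SD, n = 3 libraries), against 254 ± 69.8, 198 ± 7.03 and 340.4 ± 97.9 CPM in the other lines in number order. No library of KU-cHCC-001 reached the lowest of the other lines, and the difference of KU-cHCC-001 from their mean was -1.73 ± 0.17 on the log2 scale (edgeR adjusted p = 1.21e-05). Among the 3 other lines, neighbours in the order of level did not differ past the threshold (edgeR adjusted p = 0.200 and 0.381). CCND3 followed the same split, at 86.4 ± 31.2 CPM in KU-cHCC-001 and 159 to 213 CPM as means of the other lines (-1.05 ± 0.27, edgeR adjusted p = 0.00792). CCND2 was lowest there too, at 830.1 ± 326 CPM against means of 1093 to 1794 CPM, without passing (-0.72 ± 0.30, edgeR adjusted p = 0.0753); it passed without KU-cHCC-002 (-0.999, edgeR adjusted p = 0.0421) and with DESeq2 (adjusted p = 0.0284).

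CDK4, CDKN2B and RB1 stood the other way. CDK4 averaged 240 ± 33.0 CPM in KU-cHCC-001, against 122 to 176 CPM in the other lines (0.75 ± 0.23, edgeR adjusted p = 0.0201), and lost the call without KU-cHCC-004 (0.63, edgeR adjusted p = 0.0862). CDKN2B ran over the lines from 111 ± 34.8 CPM in KU-cHCC-001 through 70.9 ± 8.29 CPM in KU-cHCC-005 and 44.5 ± 15.5 CPM in KU-cHCC-004 down to 24.9 ± 4.04 CPM in KU-cHCC-002. KU-cHCC-001 exceeded the mean of the others by 1.38 ± 0.17 (edgeR adjusted p = 6.94e-05). No neighbours in that order differed past the threshold, KU-cHCC-001 and KU-cHCC-005 missing it narrowly (edgeR adjusted p = 0.05005), whereas KU-cHCC-002 was below KU-cHCC-005 by -1.54 (edgeR adjusted p = 0.00367). RB1 averaged 56.8 ± 27.9 CPM in KU-cHCC-001 and 35.8 to 43.1 CPM in the other lines, a spread that includes the sorafenib libraries, and with treatment in the fit the difference was 0.60 ± 0.16 (edgeR adjusted p = 0.0101). CDK6 (-0.33, edgeR adjusted p = 0.174), CDKN1B (-0.53, edgeR adjusted p = 0.0924) and MYC (0.09, edgeR adjusted p = 0.709) did not pass. CDK6 averaged 198 ± 43.7, 233 ± 21.95, 271 ± 39.3 and 255 ± 44.8 CPM in the 4 lines in number order, MYC averaged 99.7 ± 30.7, 78.2 ± 10.2, 109 ± 18.5 and 98.1 ± 13.6 CPM, and CDKN1B averaged 11.8 ± 1.93 CPM in KU-cHCC-001 and 16.7 to 20.7 CPM in the other lines. Over all genes, 36, 34.1 and 37% passed for KU-cHCC-001 against each of the others in number order, and 4.56, 7.69 and 2.92% for the 3 pairs among the others (KU-cHCC-002 with KU-cHCC-004, then with KU-cHCC-005, then the last pair). For CDK6, MYC and CDKN1B no pair of lines differed past the threshold (smallest edgeR adjusted p = 0.0850). Of the 5 differences called, 2 were lower and 3 higher in KU-cHCC-001, where 19.5% of all genes were called lower and 24.3% higher.

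A joint test over all 4 lines called CCND1 (edgeR adjusted p = 6.06e-05), CDKN2B (edgeR adjusted p = 1.35e-04), CCND3 (edgeR adjusted p = 0.0289) and RB1 (edgeR adjusted p = 0.0435), 4 of 9 where 42.1% of all genes passed. Without KU-cHCC-001 the calls of CCND1 (edgeR adjusted p = 0.0522), CCND3 (edgeR adjusted p = 0.144) and RB1 (edgeR adjusted p = 0.566) were lost, and that of CDKN2B was not. CCND3 also lost its call without KU-cHCC-004 (edgeR adjusted p = 0.0557). RB1 lost it without any 1 of the lines or the toceranib library of KU-cHCC-005 (edgeR adjusted p = 0.0558, 0.0626 and 0.0957 without the others in number order, and 0.0676 without that library). CDK4 came to pass without KU-cHCC-002 (edgeR adjusted p = 0.0497), KU-cHCC-005 (edgeR adjusted p = 0.0446) or the toceranib library of KU-cHCC-005 (edgeR adjusted p = 0.0442). The libraries of a line are cultures under different treatments, so these p-values do not measure a spread between dogs. The level of KRT7, given above, moved with the same split of the lines, and its part in these differences was not tested.

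**Figure D3:**
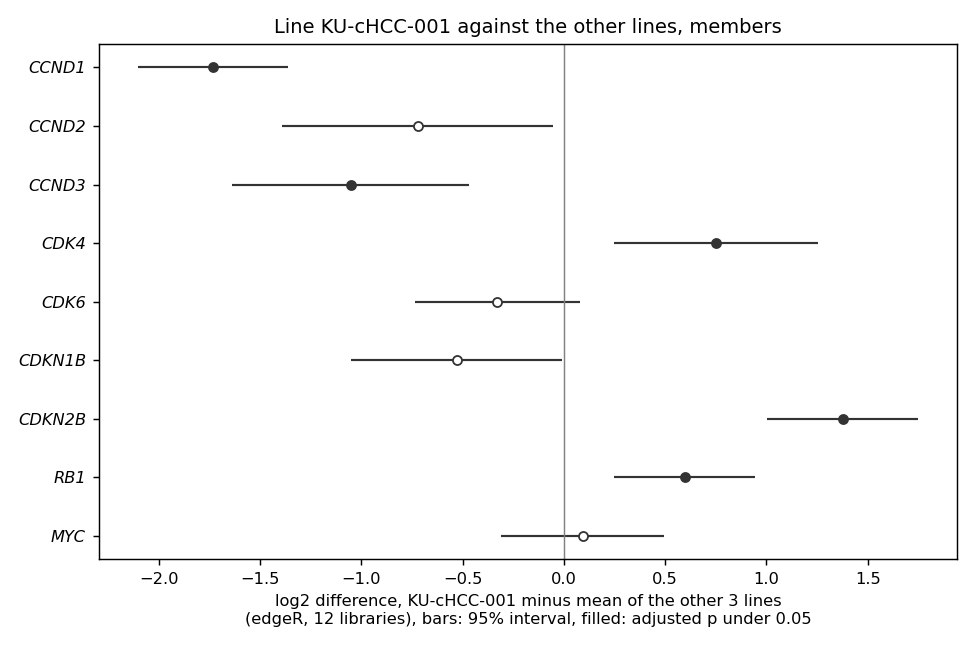
Log2 difference of each member between KU-cHCC-001 and the mean of the other 3 lines over the 12 sorafenib, toceranib and DMSO libraries (edgeR; bars are 95% intervals, a filled point an adjusted p under 0.05). CCND1 and CCND3 lie left of 0 and CDK4, CDKN2B and RB1 right of it.

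The genes around the members were read from 8 lists. Among the other CDK inhibitors, sorafenib raised CDKN1A, which encodes p21, to 653 ± 359 CPM, against 166 ± 101 CPM with DMSO (1.96 ± 0.27, edgeR adjusted p = 0.00168). CDKN2C, which encodes the CDK4 and CDK6 inhibitor p18, fell to 6.74 ± 6.01 CPM with sorafenib, against 28.7 ± 24.2 CPM with DMSO (-2.16 ± 0.36, edgeR adjusted p = 0.00361). Of the 5 tested, 1 was higher and 1 lower, with a median of -0.61. Over all genes 9.59% were called higher and 10.1% lower, with a median of -0.02. In the cyclin E and A list with CDK2, 3 of 8 were lower and 0 higher (median -0.27): CCNE2 (-2.38, edgeR adjusted p = 0.00351), CDK2 (-1.04, edgeR adjusted p = 0.00799) and CCNA2 (-1.02, edgeR adjusted p = 0.0483), which act after CDK4 and CDK6 at the start of S phase and in it.

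Downstream of RB1, 3 of 16 pocket protein and E2F genes were lower with sorafenib and 0 higher (median -0.10). They were E2F8 (-1.94, edgeR adjusted p = 0.0195), E2F2 (-2.15, edgeR adjusted p = 0.0488) and E2F1 (-1.06, edgeR adjusted p = 0.0299), the last an activator of S phase genes. The relatives of RB1, RBL1 at 36.0 ± 19.1 CPM with sorafenib against 22.5 ± 13.0 CPM with DMSO, and RBL2 at 43.6 ± 8.05 CPM against 37.95 ± 9.64 CPM, were not among those called. Of 18 S phase genes regulated by E2F, 8 were lower and 0 higher (median -0.56). RRM2, a subunit of ribonucleotide reductase, fell to 105 ± 72.4 CPM with sorafenib, against 393 ± 170 CPM with DMSO (-2.03, edgeR adjusted p = 0.00183). The replication helicase genes MCM5 (-1.93, edgeR adjusted p = 0.00323) and MCM2 (-1.71, edgeR adjusted p = 0.00374) and the uracil glycosylase gene UNG (-1.70, edgeR adjusted p = 0.00343) fell as well.

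The S phase list did not move alike in the lines. Its median log2 difference with sorafenib was -0.80 in KU-cHCC-002 and -1.16 in KU-cHCC-005, against -0.07 in KU-cHCC-001 and -0.20 in KU-cHCC-004. CCND1 also differed most from DMSO in the lines of the first pair, by -0.64 and -0.84. With toceranib the list's median was -1.01 in KU-cHCC-002 and -0.85 in KU-cHCC-005, against 0.07 in KU-cHCC-001 and 0.07 in KU-cHCC-004. CDK4 with toceranib was below DMSO by -1.46 and -1.29 in the lines of the first pair and by -0.16 in KU-cHCC-004. Both cases are named out of 9 members and both drugs, and neither gene kept this split with the other drug. CCND1 with toceranib differed more from DMSO in KU-cHCC-001 (-0.52) than it did in KU-cHCC-005 (-0.40). CDK4 with sorafenib differed by -0.37 in KU-cHCC-004, against -0.33 in KU-cHCC-005. No S phase gene of the 18 passed with toceranib over all 4 lines (median -0.47, beside -0.01 over all genes). Both sets of differences use the same DMSO libraries, and 4 lines give no test of this likeness.

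**Figure D4:**
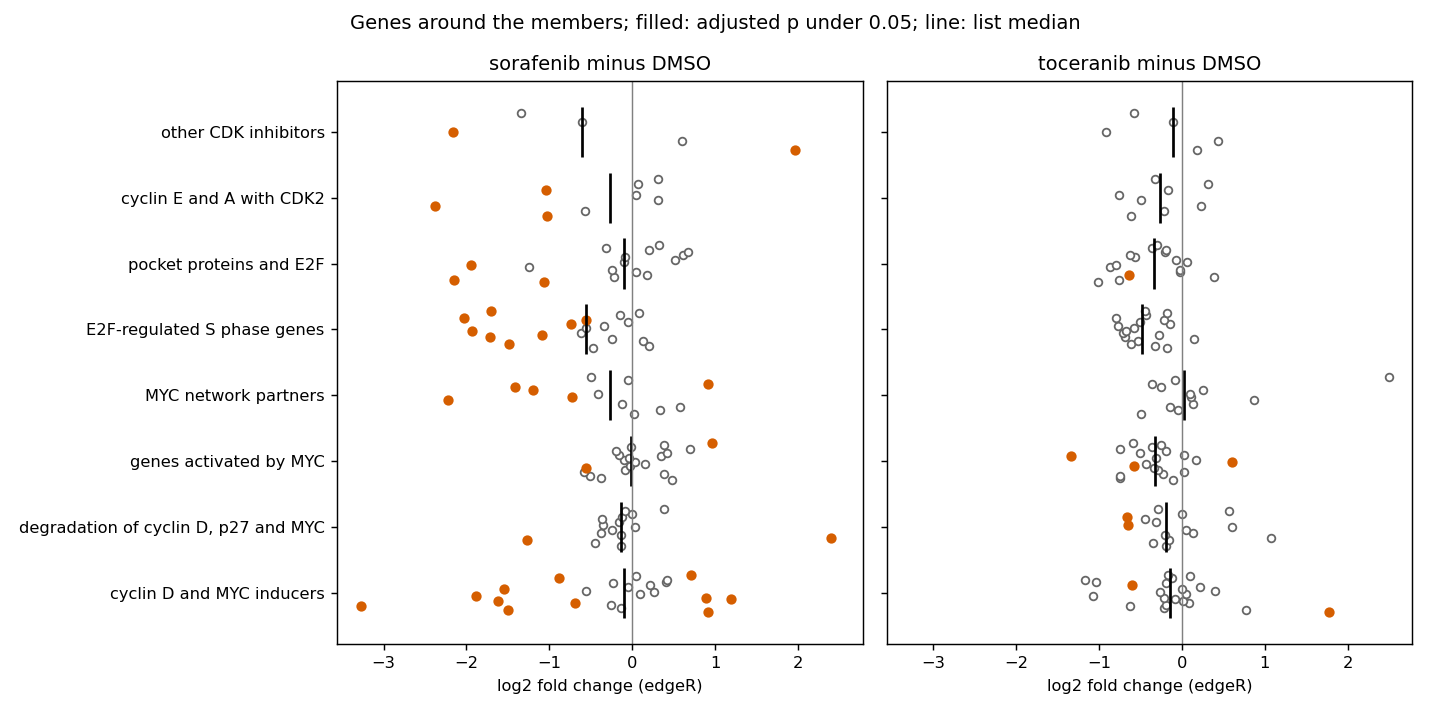
Log2 fold change of the genes of the 8 lists for sorafenib minus DMSO and toceranib minus DMSO (edgeR; each point is a gene, filled where the adjusted p is under 0.05, vertical lines are list medians). Filled points to the left of 0 gather in the E2F-regulated S phase list with sorafenib, 8 of 18, and none of that list is filled with toceranib.

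Around MYC, 1 of 12 network partners was higher with sorafenib and 4 were lower (median -0.27). The higher one was MXI1 (0.91, edgeR adjusted p = 0.00900), which encodes a repressor that competes with MYC for MAX. The lower ones included MLXIPL, a glucose-responsive transcription factor (-2.22, edgeR adjusted p = 0.00129), and the MYC antagonists MXD4 (-1.42, edgeR adjusted p = 0.0110) and MXD3 (-1.20, edgeR adjusted p = 0.0128). Of 20 genes that MYC is known to activate, 1 was higher, the polyamine enzyme gene SRM (0.97, edgeR adjusted p = 0.0106), and 1 lower, the nucleolin gene NCL (-0.56, edgeR adjusted p = 0.0455), with a median of -0.02. With toceranib 1 of the 20 was higher and 2 lower against DMSO (median -0.32), where 4.31% of all genes were higher and 3.15% lower. These were the nucleolar genes NOP56 (0.61, edgeR adjusted p = 0.0408) and NOLC1 (-0.58, edgeR adjusted p = 0.0496), and ODC1. Mean levels with DMSO, toceranib and DPBS were 182, 268 and 238 CPM for NOP56 and 226, 153 and 164 CPM for NOLC1. ODC1, the first enzyme of polyamine synthesis, fell to 93.7 ± 15.2 CPM with toceranib, against 235 ± 49.6 CPM with DMSO (-1.34, edgeR adjusted p = 0.0163). It was at 111 ± 11.2 CPM with DPBS, also lower than with DMSO (-1.06, edgeR adjusted p = 0.0270). That DPBS call was lost without any 1 of the DPBS libraries (edgeR adjusted p = 0.0962 to 0.117), without the DMSO library of KU-cHCC-002 (edgeR adjusted p = 0.0572) or of KU-cHCC-005 (edgeR adjusted p = 0.0618), with the close pairs summed (edgeR adjusted p = 0.484) and with the line label as a block (edgeR adjusted p = 0.153).

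Another list held transcription factors and pathway genes linked to the control of D cyclins or MYC, not all of them inducers. Of the 22 tested, 4 were higher and 7 lower with sorafenib (median -0.09). EGR1, an immediate early gene of growth factor signalling, fell to 50.8 ± 21.6 CPM with sorafenib, against 535 ± 315 CPM with DMSO (-3.27 ± 0.35, edgeR adjusted p = 4.19e-04). JUNB (-1.55, edgeR adjusted p = 0.00324) and FOXM1, a driver of mitotic genes (-1.89, edgeR adjusted p = 0.00747), fell, and YAP1, the Hippo pathway coactivator, rose (0.70, edgeR adjusted p = 0.00857). Of 15 genes linked to the degradation of cyclin D, p27 and MYC, not all of which promote it, 1 was higher and 1 lower. CRYAB, a chaperone that also serves an F-box ligase of cyclin D1, was higher (2.39, edgeR adjusted p = 0.00300) and CKS2 lower (-1.27, edgeR adjusted p = 0.0117). With toceranib SKP1 (-0.66, edgeR adjusted p = 0.0297), a subunit of SCF ubiquitin ligases, and GSK3A (-0.65, edgeR adjusted p = 0.0396), a kinase related to the one that marks cyclin D1 for turnover, were lower. Of the genes linked to the control of D cyclins or MYC, ATF3 was higher (1.78, edgeR adjusted p = 0.0106) and SP1 lower (-0.61, edgeR adjusted p = 0.0482). E2F4 was lower too (-0.64, edgeR adjusted p = 0.0419). Mean levels with DMSO, toceranib and DPBS were 144, 90.2 and 102.5 CPM for SKP1 and 70.7, 45.8 and 59.7 CPM for GSK3A. In the same order they were 90.25, 57.9 and 64.05 CPM for SP1 and 35.75, 121 and 61.7 CPM for ATF3. For E2F4 they were 173, 126.5 and 48.65 CPM. Against DPBS no gene of any list passed, and 1 of all 14588 genes did.

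The list calls depend on the lines included. Of the 8 list genes called with toceranib against DMSO, 5 passed without KU-cHCC-001, 0 without KU-cHCC-002, 1 (ATF3) without KU-cHCC-004 and 0 without KU-cHCC-005, and 1 (ATF3) passed without the toceranib library of KU-cHCC-005 alone. GSK3A, SP1 and NOLC1 were the 3 lost without KU-cHCC-001. Without the cell line in the fit 0 of the 8 passed. No log2 change of the 8 turned its sign in these fits. Of the 36 called with sorafenib, 35 passed without KU-cHCC-001, all but NCL, and 14 passed when any 1 of the other lines was left out. Without the cell line in the fit 5 of the 36 passed. Of the sorafenib genes named above, CDKN1A, CDKN2C, CCNE2, RRM2, MCM5, MCM2, UNG, MLXIPL, EGR1, JUNB and CRYAB passed whichever line was left out. CDK2 was lost without KU-cHCC-005, and the other named genes were lost in at least 1 of these fits. Of the 8 S phase genes, MCM3, CDT1, PCNA and RRM1 were lost when any line but KU-cHCC-001 was left out.

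The same lists were read for KU-cHCC-001 against the other lines, where 24.3% of all genes were called higher and 19.5% lower, with a median of 0.04. Of the 18 S phase genes 12 were higher, 0 lower and 6 not called (median 1.01). MCM3 (1.75, edgeR adjusted p = 3.19e-05), MCM2 (1.83, edgeR adjusted p = 1.23e-04) and MCM4 (1.47, edgeR adjusted p = 1.53e-04), subunits of the replication helicase, and CDT1, which loads it (2.06, edgeR adjusted p = 1.07e-04), were among the higher ones. Of 16 pocket protein and E2F genes 9 were higher, 1 lower and 6 not called (median 0.66). E2F4 (3.08, edgeR adjusted p = 6.59e-08), E2F7 (2.84, edgeR adjusted p = 6.97e-05), E2F2 (3.31, edgeR adjusted p = 6.66e-04) and RBL1 (1.204, edgeR adjusted p = 0.00108) were higher. Of the 8 cyclin E and A genes with CDK2, 4 were higher and 0 lower (median 0.73): CDK2 (1.57), CCNE2 (2.01), CCNA2 (1.21) and the phosphatase gene CDC25A (1.01), with edgeR adjusted p from 4.00e-05 to 0.00862.

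Of the 5 other CDK inhibitors 1 was higher and 2 lower in KU-cHCC-001 (median -0.37). CDKN2C was higher (2.64, edgeR adjusted p = 3.72e-05), while CDKN1A (-1.96, edgeR adjusted p = 2.09e-04) and CDKN1C, which encodes p57 (-2.53, edgeR adjusted p = 2.05e-04), were lower. Of the 15 genes linked to degradation 4 were higher and 3 lower (median 0.04). The leading ones were CRYAB (4.45, edgeR adjusted p = 1.21e-06), FBXW7, the F-box protein that targets MYC and cyclin E (-1.69, edgeR adjusted p = 2.20e-05), SKP2, which targets p27 (1.15, edgeR adjusted p = 2.63e-04), and SKP1 (-0.88, edgeR adjusted p = 5.58e-04).

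Among the 12 network partners of MYC 4 were higher and 5 lower (median 0.11), led by MXI1 (0.90), MXD4 (-1.57), MYCL, a relative of MYC (-1.22), and MAX, its dimer partner (-0.60), with edgeR adjusted p from 0.00137 to 0.00668. Of the 20 genes activated by MYC 4 were higher and 1 lower (median 0.05). CAD, an enzyme of pyrimidine synthesis (1.10, edgeR adjusted p = 1.12e-04), CDCA7 (1.79, edgeR adjusted p = 1.53e-04) and POLR1B, a subunit of RNA polymerase I (0.81, edgeR adjusted p = 6.18e-04), were higher and NCL lower (-0.66, edgeR adjusted p = 0.00896). Of the 22 genes linked to the control of D cyclins or MYC, 4 were higher and 3 lower (median 0.06). FOXO1 was lower (-1.55, edgeR adjusted p = 2.17e-05), and JUN (1.32), FOXM1 (2.13) and EGR1 (1.35) were higher, with edgeR adjusted p from 1.04e-04 to 0.00294. Of the 57 list genes called in this comparison, 53 passed without KU-cHCC-002, 47 without KU-cHCC-004 and 49 without KU-cHCC-005. MAX, lost without KU-cHCC-004 (edgeR adjusted p = 0.0576), was the 1 named here that did not pass in each of these.

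For each member up to 3 genes with the most similar pattern were taken by Pearson correlation of log2(CPM + 0.5) over the 12 sorafenib, toceranib and DMSO libraries, among 10299 genes. These are descriptions over libraries that share lines and treatments. CCND1 went most with ERN2 (0.96), MAP2K3 (0.95) and KRT18 (0.95), CCND2 with TENT5A (0.95), GPR4 (0.94) and RBPJ (0.93), and CCND3 with SPATS2L (0.97), CDC42 (0.96) and LRRC42 (0.95). CDK4 went with UCK1 (0.95), PSMC1 (0.95) and PSMD2 (0.94), the last a pair of proteasome subunit genes, and CDK6 with GFOD1 (0.89), APBB2 (0.88) and MYADM (0.87). CDKN1B went with SLC38A2 (0.93) and TLNRD1 (0.91), and CDKN2B was closest to RARRES1 (0.95), CFAP70 (0.94) and ZNF385A (0.93). RB1 was closest to ZNF365 (0.98), FASTKD2 (0.98) and HIPK2 (0.97), and MYC went with UBP1 (0.89) and ANKRD27 (0.87).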

How the data were processed

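RNA was measured in 16 libraries. Per the labels' protocols, RNA was extracted with Trizol, and the library kit was NEBNext Ultra II Directional. The authors deposited unnormalized whole-number counts of reads for each gene symbol. The submitters' processing notes list TopHat. Its version, the counter, the strand setting, the genome build and the gene models were not given in the sources used here, coordinates are therefore left out, and counts of overlapping or near-identical genes are uncertain. Each table held 39954 entries, 500 of them sharing 89 symbols; entries of 1 symbol were summed. The 2 CDKN2B entries, of 342 to 3456 and 20 to 135 counts per library, were not told apart. Gene length is not known, so levels were not compared between genes.

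Counts were analysed with edgeR 4.0.16 and limma 3.58.1 in R 4.3.3: filterByExpr by treatment, TMM scaling, robust quasi-likelihood fits, and Benjamini-Hochberg adjustment over all genes. CPM, computed here from the deposited counts, use TMM library sizes over the 16 libraries. Sorafenib, toceranib and DMSO (12 libraries, 14938 genes, 6 residual degrees of freedom) were fitted with treatment and cell line, and line effects were read from the same fit. A further fit held terms for KU-cHCC-001 by drug (4 residual degrees of freedom). Toceranib against DPBS (8 libraries, 14588 genes) and DPBS against DMSO (14186 genes) had treatment alone. The labels pair libraries of 1 line. Deviations from the arm means correlated at 0.753 to 0.892 between sorafenib and DMSO of a line, and at 0.561 to 0.797 between toceranib and DMSO, but at -0.506 to 0.541 between toceranib and DPBS, so DPBS was not paired.

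DESeq2 1.42.0, RLE size factors, no filter on low counts, fewer or more libraries, other blocks and left-out libraries were tried as alternatives. The sampling noise used for pairs of libraries covers counting error only, while the edgeR p-values rest on the spread between libraries. The fit of sorafenib against DMSO was also run on simulated counts. Each drug effect there was the same in every line, unlike several changes above, and the outcome is not given here. The members, the lists, the marker genes and the choice of KU-cHCC-001 were made with earlier results of these data known. All members are named; of each list, the called genes with the smallest adjusted p, up to 4, are named for sorafenib and toceranib against DMSO, for DPBS against DMSO and for KU-cHCC-001 (RBL1 and RBL2 were added after their values were seen). Of the genes most similar in pattern to CDKN1B and to MYC, 1 each is not reported here.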

Additional observations from a re-analysis of the deposited data

Results flagged for a closer look

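In 2 cases a library stood far from the other 3 of its arm for a member. CDK4 in the DMSO library of KU-cHCC-004 was 136.9 CPM, with the nearest of the other DMSO libraries at 239 CPM, and the gap took 0.89 of the arm's range. MYC in the toceranib library of KU-cHCC-001 was 65.03 CPM, with the nearest toceranib library at 87.1 CPM and a gap of 0.875 of the range. Both exceed the limit of Dixon's test for 4 values. In all, 36 groups of 4 were looked at, and chance alone gives such a gap in about 1 group in 20.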

How the results depend on the processing

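Over the alternatives, 670 of the fold changes of single members kept their direction and their side of the threshold, 20 came to pass, 25 no longer passed and 32 turned their sign, and the changes of call that bear on the text stand in the report; the causes were not tested. All 36 mean levels moved by less than 1 SD on total counts. The replicate block, the cell line, pairs libraries by the labels. Without it the genes called fell to 464 for sorafenib against DMSO (2935 with it), 0 for toceranib against DMSO (1115 with it) and 2159 for sorafenib against toceranib (5737 with it), and RB1 with sorafenib lost its call, as given above. With the block, 0 genes passed for toceranib against DPBS (RB1 -0.48, CCND1 -0.057), and 0 for DPBS against DMSO (485 without it), where CDK4 was -0.96 with an edgeR adjusted p of 0.176. DESeq2 called 2335 genes for toceranib against DMSO, 410 against DPBS, 1754 for DPBS against DMSO, and 103 and 650 in the tests of the sorafenib and toceranib effects in KU-cHCC-001 (edgeR 0 and 111). With no filter on low counts those tests gave 74 and 568. With the 16 libraries in 1 fit the counts were 557 for toceranib against DMSO, 0 against DPBS, 1694 for cell line (6293 in 12 libraries) and 4207 for KU-cHCC-001 (6542). The 8 libraries of both arms alone gave 5053 for sorafenib and 129 for toceranib against DMSO, and summing the close DPBS pairs gave 0 for toceranib against DPBS and, chosen after seeing the data, 0 for DPBS against DMSO.

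Leaving out a line or a library gave 596 to 3906 genes for sorafenib against DMSO, 1 to 3044 for toceranib against DMSO, 3017 to 6750 for sorafenib against toceranib, 1 to 28 for toceranib against DPBS, 0 to 2378 for DPBS against DMSO, and 2470 to 6524 for cell line. It gave 5847 to 6896 for KU-cHCC-001, and 1 to 2 and 25 to 192 for the sorafenib and toceranib effects in it. Signs turned only for changes that had not passed. CDK6 with sorafenib against DMSO became 0.0013 (RLE), 0.013 (no filter), 0.0013 (DESeq2) and 0.016 (16 libraries), and CCND2 with toceranib against DMSO became -0.043 (no filter) and -0.032 (8 libraries). Left-out libraries moved the change against DMSO over -0.12 to 0.11 (CDK6, sorafenib), -0.12 to 0.31 (CCND2, toceranib), -0.21 to 0.088 (CDK6, toceranib), -0.22 to 0.13 (RB1, toceranib), -0.061 to 0.42 (CDKN1B, toceranib) and -0.23 to 0.019 (CCND2, DPBS). Between sorafenib and toceranib the ranges were -0.19 to 0.051 (CCND1), -0.071 to 0.54 (CCND3), -0.15 to 0.27 (CDK6) and -0.068 to 0.40 (MYC). Against DPBS they were -0.22 to 0.43 (CCND1), -0.0039 to 0.55 (CCND2), -0.19 to 0.030 (CCND3) and -0.071 to 0.58 (CDK4). They were -0.071 to 0.17 for MYC in KU-cHCC-001, -0.0058 to 0.29 for the sorafenib effect on CDKN1B there and -0.065 to 0.36 for the toceranib effect on CDKN2B.

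With 1 library per line and arm, a library's own error and a line's own response cannot be told apart, and depth limits CDKN1B most, at 201 to 554 counts.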
